A study of Arabidopsis thaliana with 6 samples.

Results

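The cytosolic large ribosomal subunit of *Arabidopsis thaliana* is described here from 60 loci that encode its proteins, of which 39 could be measured. These 39 loci, for 19 of the 25 proteins on the list, each had a probe set that the platform annotation tied to that gene alone, among 13356 such genes on the array. Another 5 loci (for L6, L9 and L21) shared a probe set with another gene and 16 had no named probe set, so that L3, L5, L10, L11, L21 and L24 were not analysed here. Each measured locus had 1 probe set.

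The large subunit joins amino acids at its peptidyl transferase centre and releases the new chain through an exit tunnel lined by rRNA and proteins such as L4 and L17. Its mobile stalks guide elongation factors and the leaving tRNA. In plants nearly every ribosomal protein is encoded by several expressed gene copies, and the genes are known to be transcribed most in growing and dividing tissue. Loci are given by their identifiers, and their assignment to proteins follows the common nomenclature of plant ribosomal proteins, because the gene tables used here gave nearly all of them as a locus name only.

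The samples were 5-week-old plants of the Columbia ecotype grown in 16 h of light and 8 h of dark, either wild type or carrying 35S::CLE41, which drives the peptide gene *CLE41* from a viral promoter active in most tissues. RNA came from the lower part of the inflorescence stem, without the 1 cm above the rosette. Each genotype had 3 samples with 1 array each, and the labels do not state that the 3 came from separate plants. Every p-value therefore rests on a spread that could be technical in origin. The labels do not say which 35S::CLE41 line was used.

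*CLE41* (AT3G24770), the overexpressed gene, had log2 intensities of 9.68, 9.42 and 9.98 in wild type and 11.27, 11.73 and 11.38 in 35S::CLE41, a rise of 1.77 (SE 0.18, adjusted p = 0.0013 by limma). Over all 13356 genes, 941 (7.05%) rose and 742 (5.56%) fell at an adjusted p of 0.05, together 12.6% (14.8% of all probe sets). Wild-type replicate 2 stood apart, with 365 probe sets at least 2-fold from the mean of the other wild-type arrays, against 32 to 100 for the other 5 arrays. Of 12 listed genes of stem vascular tissue 3 were measured, and *GUT2*, *IRX15* and *HCT* had log2 intensities from 8.42 to 12.44 on the 6 arrays. In a whole-stem sample, fewer cells of a type and less RNA per cell cannot be told apart.

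Most of the 39 measured genes had negative differences between the genotypes. None passed an adjusted p of 0.05 in either direction by limma's moderated test, where 12.6% of all genes did, and 2 had an unadjusted p under 0.05, where 26.2% of all genes did. These shares include many dim genes, while all but 2 of the 39 lay above the dimmest 40% of probe sets. With those probe sets left out, 22.7% of the remaining 7277 genes passed and again none of the large-subunit genes did. The median SE was 0.17 for the 39 genes and 0.12 for all genes, so a given difference passed less readily among the 39. The log2 difference, 35S::CLE41 minus wild type, had a median of -0.14 over the 39 genes and of -0.0030 over all genes. It was negative for 31 of the 39 and for 50.5% of all genes. It lay within 0.3 of 0 for 31 of them and for 72.3% of all genes. The 95% interval of the difference stayed inside a 2-fold change in either direction for 36 genes and inside a 1.5-fold change for 23. The genotypes' arrays did not overlap for 3 of the 39, AT3G13580 and AT4G02230 on the higher side and AT4G13170 on the lower side, where 32% of all genes did not overlap (17.4% higher and 14.6% lower).

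**Figure D1:**
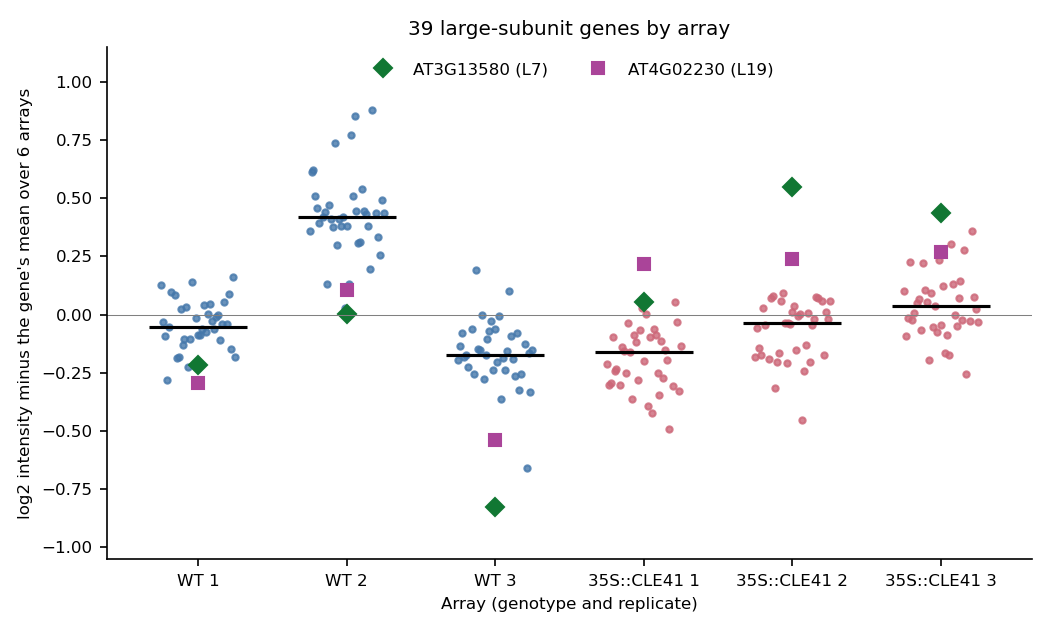
Log2 intensity of each of the 39 large-subunit genes minus its own mean over the 6 arrays (vertical axis), by array (horizontal axis), with a black bar at the median of the genes. Wild-type replicate 2 lies above the other arrays for most genes, while AT3G13580 and AT4G02230 are higher in every 35S::CLE41 array than in any wild-type array.

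The largest movement of the group was between wild-type arrays. Relative to each gene's mean of wild-type replicates 1 and 3, the median of the 39 genes stood at 0.54 on the log2 scale in wild-type replicate 2, and at -0.11, 0.09 and 0.11 in 35S::CLE41 replicates 1, 2 and 3. The medians of all genes on these 4 arrays, taken in the same way, lay between -0.025 and 0.049. Wild-type replicate 2 was the highest wild-type array for 38 of the 39 genes and for 39.9% of all genes, and the highest of all 6 arrays for 33 of the 39. Its excess over the other wild-type arrays ran from 0.13 for AT3G51190 (L8) to 0.98 for AT2G20450 (L14). No gene was highest in wild-type replicate 1 or in 35S::CLE41 replicate 1. The latter was the lowest array for 18 of the 39. All genes include many dim ones, and these shares and medians were not taken for genes as bright as the 39.

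The deviations of the 39 genes from their genotype means ran together, with a median correlation of 0.843 over 741 pairs of genes. This describes 6 shared arrays and carries no test, and no such correlation is given here for other genes. Of 5 dividing-cell markers *AUR1*, *AUR2* and the helicase gene *MCM7* (*PRL*) were measured. All 3 were highest in wild-type replicate 2 among the wild-type arrays, as were 39.9% of all genes. Their median excess was 0.78, against 0.014 over all genes. *MCM7* differed little between these arrays, at 7.26, 7.37 and 7.32 in wild-type replicates 1, 2 and 3. The epidermal gene *WSD1* had an excess of 0.73 in wild-type replicate 2. The 3 measured vascular markers were all lower in it than in both other wild-type arrays, with a median of -1.13. The part of these markers in the ribosomal pattern was not tested.

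Without wild-type replicate 2 the group's median difference was 0.020 on the log2 scale, with 19 genes negative and 20 positive, and 36 of the 39 within 0.3 of 0. AT3G13580 and AT4G02230 were then called higher and no gene was called lower; 10.6% of all genes were called in that fit, and 5.7% of all genes were called higher in 35S::CLE41. Use of this array as a doubted one was decided after the values were seen.

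**Figure D2:**
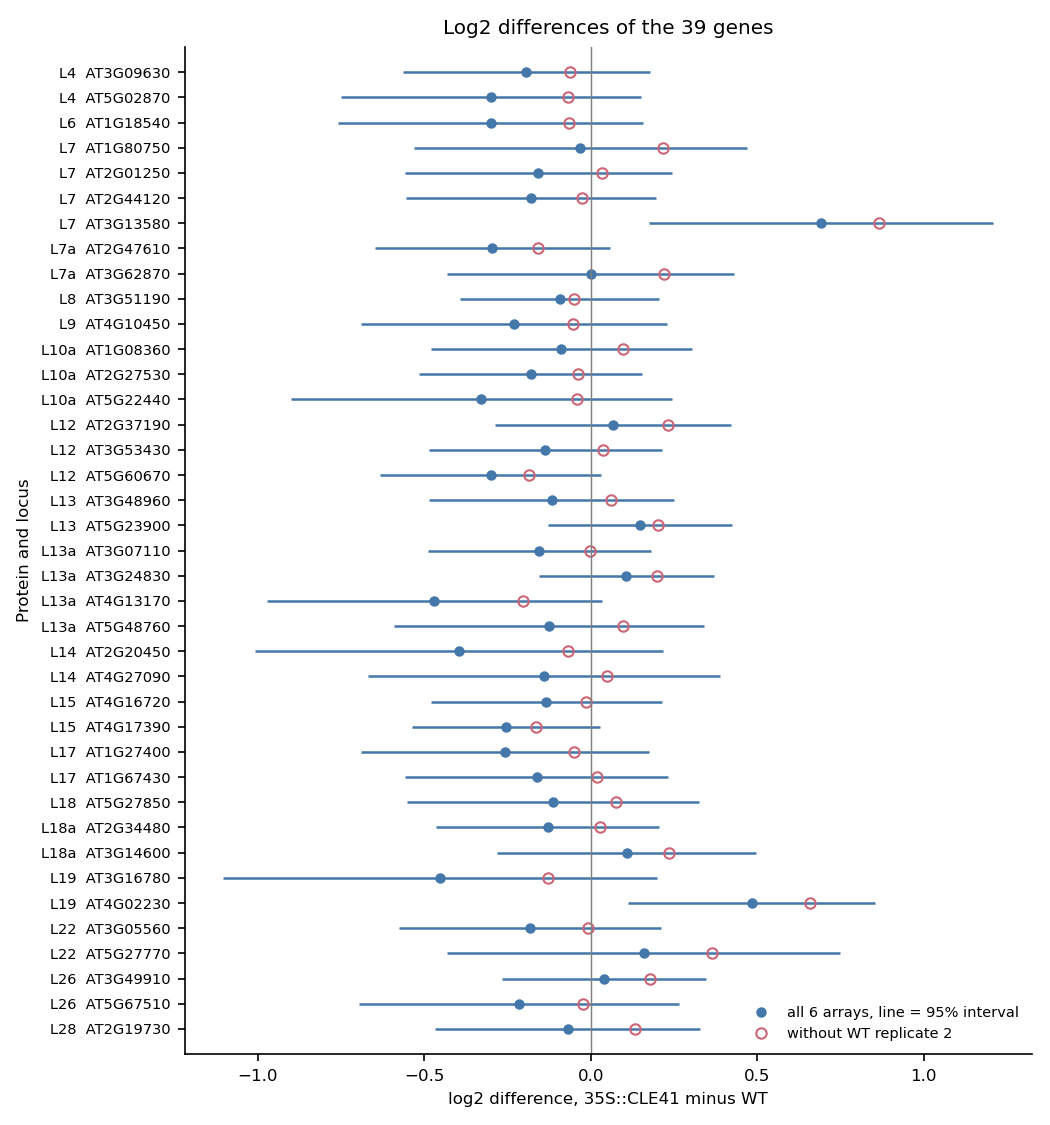
Log2 difference (35S::CLE41 minus wild type, horizontal axis) of each of the 39 genes, ordered by protein (vertical axis); filled points and lines give the value and 95% interval with all 6 arrays, open points the value without wild-type replicate 2. Most filled points lie left of 0 and every open point lies to the right of its filled one, and AT3G13580 (L7) and AT4G02230 (L19) stand apart on the right.

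L7 is an rRNA-binding protein with a counterpart in bacteria, and all 4 of its listed loci were measured. AT3G13580 had log2 intensities of 9.59, 9.81 and 8.98 in wild type and 9.86, 10.35 and 10.24 in 35S::CLE41. The lowest 35S::CLE41 array was above the highest wild-type array, although wild-type replicate 3 lay well below the other wild-type arrays. The difference was 0.69 (SE 0.22), or 1.62-fold, with a 95% interval from 0.17 to 1.21 and an adjusted p of 0.0791 by limma, the smallest of the 39 genes. Without single arrays the difference ran from 0.45 (without wild-type replicate 3) to 0.87 (without wild-type replicate 2, adjusted p = 0.0329), and the adjusted p from 0.0329 to 0.223.

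The other 3 L7 loci had differences below 0, none of them called. AT2G44120 had log2 intensities of 11.01, 11.30 and 10.68 in wild type and 10.68, 10.86 and 10.92 in 35S::CLE41, a difference of -0.18 (SE 0.16, adjusted p = 0.544). AT2G01250 had 11.57, 12.07 and 11.44 against 11.37, 11.64 and 11.60, a difference of -0.16 (SE 0.17, adjusted p = 0.63). For both, the wild-type arrays spread over a wider range than the 35S::CLE41 arrays and overlapped them. AT1G80750 had 8.17, 8.96 and 8.27 against 8.36, 8.28 and 8.68, a difference of -0.03 (SE 0.22, adjusted p = 0.953) that was 0.22 without wild-type replicate 2.

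Unequal change between copies was measured as the log2 ratio of 2 probe sets within each array, which cancels any shift common to both; the level of the ratio itself has no meaning between different probe sets. The ratio of AT3G13580 to AT2G44120 was -1.42, -1.50 and -1.71 in wild type and -0.82, -0.51 and -0.68 in 35S::CLE41. It thus moved by 0.87 (SE 0.12), or 1.83-fold, and the spread within each genotype was 0.15 (SD, n = 3 each). Against AT2G01250 the ratio moved by 0.85 (SE 0.16) and against AT1G80750 by 0.72 (SE 0.28), again with no overlap of the genotypes. In each case the exact two-sided permutation p was 0.1, the smallest that 3 arrays against 3 allow. These movements stayed between 0.54 and 0.98 without any single array. Among all pairs of measured genes, 38% had ratios that did not overlap between the genotypes.

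L19, which bridges the large to the small subunit and has no bacterial counterpart, had 2 of its 3 listed loci measured. AT4G02230 had log2 intensities of 10.34, 10.74 and 10.09 in wild type and 10.85, 10.87 and 10.90 in 35S::CLE41. The SD was 0.027 over the 35S::CLE41 arrays and 0.33 over the wild-type arrays (n = 3 each), and the groups did not overlap. The difference was 0.48 (SE 0.16), or 1.40-fold, with a 95% interval from 0.11 to 0.85 and an adjusted p of 0.0848 by limma. It was 0.66 without wild-type replicate 2 (adjusted p = 0.00962) and 0.34 to 0.50 without any other single array (adjusted p from 0.179 to 0.194).

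The other measured L19 locus, AT3G16780, had log2 intensities of 8.58, 9.40 and 8.27 in wild type and 8.03, 8.60 and 8.27 in 35S::CLE41. Its difference of -0.45 (SE 0.28, adjusted p = 0.347) was among the 3 lowest of the 39 genes and shrank to -0.13 without wild-type replicate 2. The within-array ratio of AT4G02230 to AT3G16780 was 1.76, 1.34 and 1.82 in wild type and 2.82, 2.27 and 2.63 in 35S::CLE41. It moved by 0.94 (SE 0.22), or 1.91-fold, the largest movement among all paralogue pairs with all 6 arrays (exact permutation p = 0.1). Without wild-type replicate 2 it moved by 0.79, less than the L7 pair AT3G13580 and AT2G44120 at 0.89. Without single arrays it moved by 0.79 to 1.09.

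L13a has a second role in mammals as a repressor of selected mRNAs, and 4 of 4 listed loci were measured. AT4G13170 had log2 intensities of 9.74, 10.57 and 9.79 in wild type and 9.41, 9.65 and 9.64 in 35S::CLE41. All 35S::CLE41 arrays were below all wild-type arrays, and wild-type replicate 2 was far above the other two. The difference of -0.47 (SE 0.22, adjusted p = 0.199) was the lowest of the 39 and was -0.20 without wild-type replicate 2. AT3G24830 had 11.88, 12.10 and 11.77 against 11.97, 12.01 and 12.09, a difference of 0.11 (SE 0.11, adjusted p = 0.612). The ratio of AT3G24830 to AT4G13170 was 2.14, 1.53 and 1.97 in wild type and 2.56, 2.36 and 2.46 in 35S::CLE41. It moved by 0.58 (SE 0.19), without overlap, and by 0.40 without wild-type replicate 2. The remaining L13a loci, AT3G07110 and AT5G48760, differed by -0.15 and -0.13.

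No measured locus of the stalk proteins L12 and L10a passed the test. L12, at the base of the stalk where elongation factors dock, had 3 loci measured, with differences of 0.07 for AT2G37190, -0.14 for AT3G53430 and -0.30 for AT5G60670 (adjusted p from 0.214 to 0.838). AT2G37190 had log2 intensities of 11.43, 11.96 and 11.48 in wild type and 11.57, 11.75 and 11.75 in 35S::CLE41, and AT5G60670 had 10.79 to 11.24 against 10.58, 10.65 and 10.90. Both overlapped between the genotypes. Their ratio, at 0.43, 0.72 and 0.69 against 0.99, 1.09 and 0.85, did not, as for 38% of all gene pairs. It moved by 0.37 (SE 0.12, exact permutation p = 0.1), and by 0.27 to 0.43 without single arrays. The direction for AT2G37190 alone was not stable, at -0.013 with all arrays shifted to a common median. L10a forms the mobile stalk that contacts the leaving tRNA. Its 3 loci differed by -0.09 (AT1G08360), -0.18 (AT2G27530, *PGY1*, known from *piggyback1* mutants with altered leaf polarity) and -0.33 (AT5G22440).

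Nor did any locus for the proteins of the exit tunnel and its mouth. The L4 loci AT3G09630 and AT5G02870 differed by -0.19 and -0.30, and the L17 loci AT1G67430 and AT1G27400 by -0.16 and -0.26. The L26 loci AT3G49910 and AT5G67510 differed by 0.04 and -0.22. Without wild-type replicate 2 the L4 and L17 values lay between -0.07 and 0.02. L8, which lies next to the peptidyl transferase centre, was represented by AT3G51190, at 5.22, 5.53 and 5.59 in wild type and 5.25, 5.48 and 5.34 in 35S::CLE41. This locus and AT3G48960 (L13) had means below 5.67, the log2 intensity under which the dimmest 40% of probe sets lie, so the sizes of their differences are uncertain. The other 37 genes had wild-type means between 8.47 and 12.26.

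Among the remaining proteins, L14 held the third of the lowest differences: AT2G20450 had log2 intensities of 8.66, 9.58 and 8.54 in wild type and 8.31, 8.73 and 8.56 in 35S::CLE41, a difference of -0.39 (SE 0.27, adjusted p = 0.389) that was -0.07 without wild-type replicate 2. Its partner AT4G27090 differed by -0.14. L22 held the third of the highest: AT5G27770 had 11.02, 11.26 and 10.27 against 10.99, 10.76 and 11.29, a difference of 0.16 (SE 0.26, adjusted p = 0.754). Wild-type replicate 3 set that direction, since the difference was -0.13 without it. The measured loci of L6, L7a, L9, L13, L15, L18, L18a and L28 differed by -0.30 to 0.15, with adjusted p of 0.214 or more. Leaving AT3G13580 and AT4G02230 aside, the other 37 genes ran from -0.47 to 0.16, with no adjusted p under 0.199.

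In all, 28 pairs of loci for 14 proteins could be compared within arrays. The ratios of the genotypes did not overlap for 9 pairs, in L7, L12, L13a and L19. These pairs share loci and are not independent: all the L7 ones hold AT3G13580 and both L12 ones AT2G37190. Those of L13a are made from AT3G24830, AT4G13170 and AT3G07110. The share of 9 in 28 is no higher than that of all pairs of measured genes, of which 38% did not overlap. Of pairs of large-subunit genes from different proteins, 24.8% did not overlap. For 10 of the 28 pairs the ratio moved by under 0.2, and among the 19 that overlapped the median movement was 0.16 and the largest 0.34. The smallest movement, 0.022, was that of the L7 loci AT2G01250 and AT2G44120. Leaving out an array can only raise such counts: without 35S::CLE41 replicate 2 it was 17 of the 28, where 47.7% of all gene pairs did not overlap.

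**Figure D3:**
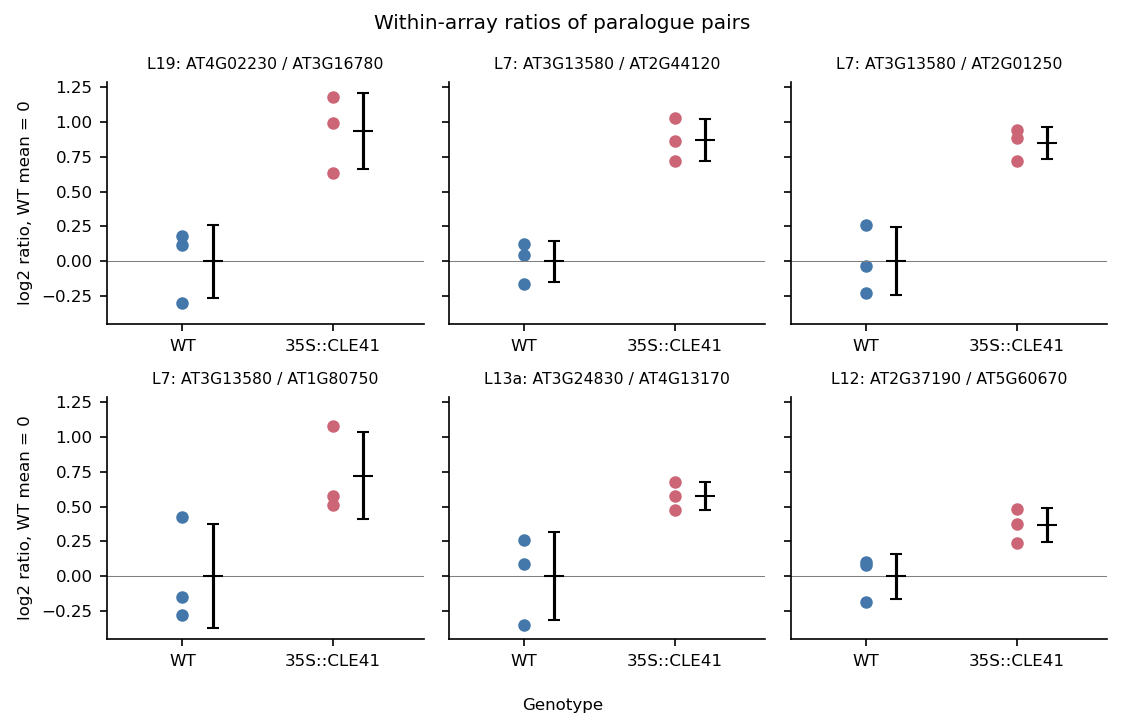
Log2 ratio of 2 loci of a protein within each array, with the wild-type mean set to 0 (vertical axis), by genotype (horizontal axis), for the 6 pairs with the largest movements that did not overlap; points are arrays, bars give mean and SD (n = 3 each). The L19 and L7 pairs moved by 0.72 to 0.94 and the L13a and L12 pairs by 0.58 and 0.37.

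Setting every gene against the median of the 39 genes in its array, a scaling chosen after the values were seen, removes the shift common to the group. It also moves the median of all genes by 0.107. On this scale AT3G13580 rose by 0.80 (adjusted p = 0.0198 by limma) and AT4G02230 differed by 0.59 (adjusted p = 0.14). Both lay above wild type in every 35S::CLE41 array. Of all genes 8.82% were called and 16.1% did not overlap on this scale, against 1 and 2 of the 39. The next in size were AT4G13170 at -0.36 and AT3G16780 at -0.35.

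The rest of the cytosolic translation machinery, in lists of 41, 45, 13 and 2 measured genes, held 3 called genes, all lower in 35S::CLE41. That share is below those of all genes, of which 12.6% were called and 5.56% were called lower. Of 68 further large-subunit loci, listed because they complete the subunit, 41 were measured, with a median log2 difference of -0.17, 0 called higher and 2 called lower. AT3G28500 (P2) fell by 0.87 (SE 0.18, adjusted p = 0.0187 by limma) and AT2G40010 (P0) by 0.58 (SE 0.14, adjusted p = 0.0312). Both encode P proteins of the stalk, whose other measured loci ran from -0.49 (AT4G00810) to 0.02 (AT2G27720), none of them called. AT3G28500 had log2 intensities of 10.53, 11.11 and 10.42 in wild type and 9.70, 9.94 and 9.82 in 35S::CLE41, without overlap. AT3G28500 no longer passed when any 1 of the 35S::CLE41 arrays was left out (highest adjusted p 0.0671). The call was lost for AT2G40010 without 4 of the 6 arrays, including wild-type replicate 2 (adjusted p = 0.0523). AT1G15250 (L37), named after its values were seen, had the highest difference of that list, 0.43 (SE 0.12, adjusted p = 0.0536), and passed without wild-type replicate 2 (0.51, adjusted p = 0.0378) and with array weights (adjusted p = 0.034).

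Of 89 small-subunit loci 45 were measured; none was called, 6 had an unadjusted p under 0.05, and the median was -0.12. Wild-type replicate 2 was the highest wild-type array for 43 of these 45 and for 40 of the 41 further large-subunit genes. Ribosome assembly factors, 13 of 40 measured, had none called, 1 with an unadjusted p under 0.05, and a median of -0.08. The helicase gene *PRH75* (AT5G62190), named after its values were seen, differed by 0.47 (adjusted p = 0.134) and passed without wild-type replicate 2 (adjusted p = 0.0187). Of 11 elongation factor genes 2 were measured, and AT5G12110, for a subunit of elongation factor 1B, fell by 0.84 (SE 0.18, adjusted p = 0.0217). It too did not pass when any 1 of the 35S::CLE41 arrays was left out (highest adjusted p 0.0789). The other, AT5G19510, differed by 0.08 (adjusted p = 0.718). Of 7 genes of the TOR growth pathway, *RAPTOR1*, named after its values were seen, was measured and differed by 0.34 (adjusted p = 0.227).

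The plastid ribosome translates the genes of the chloroplast genome, and the measured nuclear genes for its large subunit had lower values in 35S::CLE41. Its small subunit and rRNA were not analysed here. Of 24 nuclear genes for the plastid large subunit 7 were measured. All 7 were called lower, where 5.56% of all genes were, with a median of -1.12 and a range from -1.25 to -0.61. AT5G47190 had log2 intensities of 10.22, 10.93 and 10.28 in wild type and 9.10, 9.37 and 9.19 in 35S::CLE41, a fall of 1.25 (SE 0.19, adjusted p = 0.00604). AT4G17560, AT1G29070 and AT2G43030 differed by -1.21, -1.12 and -0.91 (adjusted p from 0.00324 to 0.005). Wild-type replicate 2 was again the highest wild-type array for all 7, and without it the median was -0.97 with all 7 still called. The difference between the cytosolic and the plastid list was not tested.

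**Figure D4:**
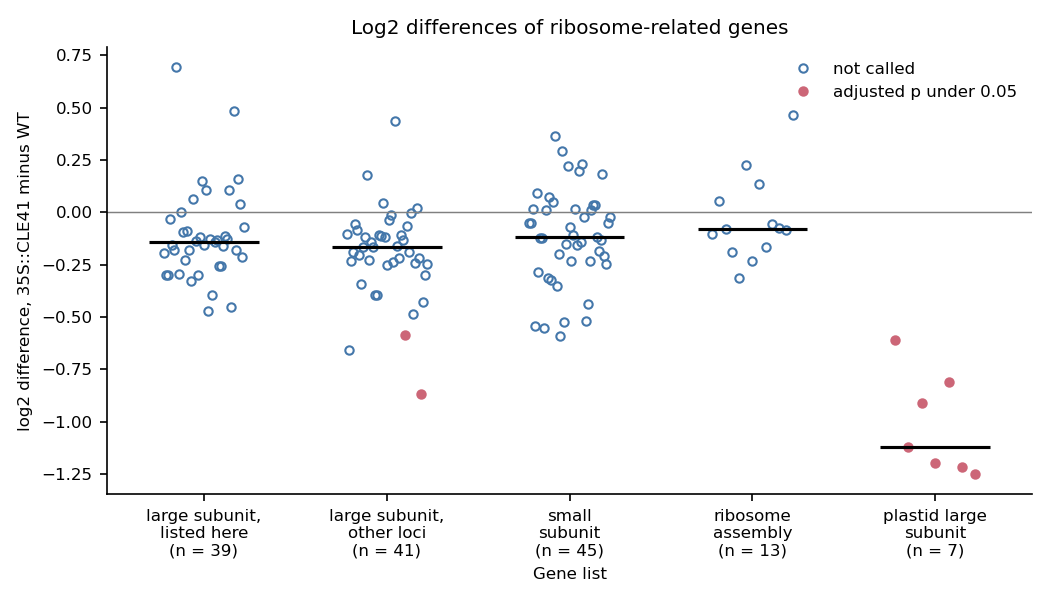
Log2 difference (35S::CLE41 minus wild type, vertical axis) of each measured gene in 5 lists (horizontal axis), with a black bar at the list median; filled points passed an adjusted p of 0.05. The cytosolic lists have medians between -0.17 and -0.08 with 2 called genes in all, and the 7 plastid genes lie between -1.25 and -0.61, all called.

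Of 13 measured markers of cell types that a stem sample could hold, 3 were called, where 12.6% of all genes were. Of the 3 measured vascular genes *HCT*, of lignin synthesis, rose by 1.24 (adjusted p = 0.0307, but 0.104 at the highest when 1 array was left out), while *IRX15* and *GUT2*, of xylan synthesis, differed by 0.90 and 0.45 and did not pass. The epidermal wax ester gene *WSD1* (AT5G37300) fell by 3.08. Of the 3 dividing-cell markers *MCM7* fell by 0.41 (adjusted p = 0.0428; it did not pass without 5 of the 6 arrays), and *AUR1* and *AUR2* differed by -0.79 and -0.48, of which *AUR1* passed without wild-type replicate 2 (adjusted p = 0.0336). None of 4 stomatal genes, 1 measured meristem gene or 1 root gene was called, with 1 unadjusted p under 0.05 among them, and no floral marker was measured. That one was *STOMAGEN*, named after its values were seen, at -1.06 (adjusted p = 0.0537, and 0.00902 without wild-type replicate 2). The part of these markers in the values of the ribosomal genes was not tested.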

How the data were processed

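For each of 22746 probe sets the authors deposited an intensity on a linear scale. RMA and limma are named, per the submitters' processing notes, without version or order. Array medians ran from 91.9 to 96.3 in wild type and from 97.4 to 101 in 35S::CLE41. A genome build was not given in the sources used here, and no coordinates were used. Per the labels' protocols, total RNA was amplified in 2 cycles and biotin-labelled. No background or detection call was used. Log2 was taken. The platform annotation tied 13513 probe sets to 1 gene, updated through RefSeq (TAIR10.1), 503 to several, and did not list 8730; the probe set with the highest mean stood for a gene.

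All probe sets were fitted in R 4.3.3 with limma 3.58.1 (lmFit, eBayes, two-sided) and adjusted by Benjamini-Hochberg over all 22746, with a threshold of 0.05. In simulated data for this comparison (22746 probe sets) changes of 0.5, 1 and 2 on the log2 scale were recovered in 16%, 72% and 100% of cases, with 5 false calls. The number of arrays limits precision.

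The members and lists were chosen with earlier results of these data known. Named genes were any member called, the 3 highest and 3 lowest differences, the 6 largest non-overlapping paralogue movements, called genes of each list (at most 4), and *CLE41*. Further members and markers were given to complete a protein or list, and other genes named after their values were seen are marked so. Figures were drawn with matplotlib 3.10.9.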

Additional observations from a re-analysis of the deposited data

How the results depend on the processing

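The count of the 39 genes called was 0 as reported, with the replicate block, with arrays shifted to a common median, after leaving out the dimmest 40% of probe sets, with only probe sets mapped to 1 gene, with a mean over a gene's probe sets and at a threshold of 0.01. In the same order 12.6%, 10.8%, 12.4%, 22.7% (of the 7277 genes left), 11.9%, 12.5% and 4.15% of genes were called. The count was 1, called higher, with quantile normalization (AT4G02230, adjusted p = 0.0454), with eBayes trend and robust settings (AT3G13580, adjusted p = 0.0498), with array weights (AT4G02230, adjusted p = 0.0204) and relative to the members' median, and 2 at a threshold of 0.1. Of all genes 12.1%, 12.8%, 15%, 8.82% and 19.2% were called under these 5 settings. Without single arrays it ran from 0 to 2 (6.27% to 10.6% of all genes, lowest without 35S::CLE41 replicate 2, against 12.6% with all arrays), and the group's median from -0.269 to 0.0201. The number of paralogue pairs without overlap ran from 10 to 17. The deviations of same-numbered samples from their genotype means had correlations of -0.0102, 0.0805 and -0.0925. With 3 arrays per genotype these values cannot show whether same-numbered samples shared a harvest or a batch. The replicate block gave AT3G13580 an adjusted p of 0.0772 and AT4G02230 one of 0.0959; it ended the call of *MCM7* (adjusted p = 0.0577) and changed no other named call.

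Over 26 named genes and 390 alternative values, 348 kept their direction and call status, 23 no longer passed, 9 newly passed and 10 turned in sign. The reversed ones were AT1G80750 (0.126 with array weights, 0.0768 relative to the members' median, 0.217 without wild-type replicate 2, 0.0106 and 0.048 without 35S::CLE41 replicates 1 and 2), AT2G37190 (-0.0129 with a common median, -0.0304 and -0.0047 without wild-type replicates 1 and 3), AT2G01250 (0.0333 without wild-type replicate 2) and AT5G27770 (-0.131 without wild-type replicate 3). Without single arrays these 4 ran from -0.179 to 0.217, -0.0304 to 0.233, -0.282 to 0.0333 and -0.131 to 0.365. Their causes were not tested. Shifting arrays to a common median moved the split of called genes from 941 higher and 742 lower to 700 and 960.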
